A study of Homo sapiens with 4 samples.

Results

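The phagocyte NADPH oxidase subunits described here are CYBB, CYBA, NCF1, NCF4 and RAC2, taken by symbol from the deposited table of gene counts. All 5 were found among its 23368 entries. They were chosen by their counts in these same lines, the values of the contrast described below, so their levels are a description and carry no test. RNA-seq was done on 4 human B-precursor acute lymphoblastic leukemia lines cultured without treatment in RPMI with serum, 1 library each, and nothing in the labels speaks of separate cultures. The translocation t(4;11), a fusion of MLL (KMT2A) with AFF1, is carried by RS4;11 and SEM. NALM6 and REH lack t(4;11) and served as the controls. All 4 lines are established leukemias that carry other lesions of their own, and each stands for 1 leukemia. As background, REH carries the ETV6-RUNX1 fusion and NALM6 a DUX4 rearrangement.

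The phagocyte NADPH oxidase moves electrons from NADPH across a membrane to oxygen and so makes superoxide. Its membrane part, cytochrome b558, joins the catalytic chain gp91phox (NOX2, encoded by CYBB) to p22phox (CYBA), and each chain stabilises the other. On activation cytosolic subunits, p47phox (NCF1) and p40phox (NCF4) among them, move from the cytosol to the membrane together with the GTPase RAC2, and only the assembled complex is active. Neutrophils and macrophages use the enzyme to kill microbes, and its inherited loss causes chronic granulomatous disease. B lymphocytes also express it at a lower level.

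Library totals lay between 33620574 counts (SEM) and 84212986 counts (REH). Levels are CPM, the count scaled to a fixed total by each library's column sum, with a floor of 3 counts between 0.0356 and 0.0892 CPM. Defining markers of the labelled B-precursor type were present, and PAX5 lay between 254 and 419 CPM in the 4 lines. Of 12 B-precursor markers, 12 reached 1 CPM in RS4;11 and NALM6 and 11 in SEM and REH. Of 23 phagocyte and myeloid markers, ELANE, PRTN3, CAMP, FCGR3B, FPR2, FCN1 and MNDA had no count in any line. The summed level of those 23 genes was 36.0 and 60.5 CPM in the t(4;11) lines versus 24.2 and 56.2 CPM in NALM6 and REH, so the groups overlapped. MPO, the peroxidase of neutrophil granules, stood at 34.2 CPM in REH and at most at 0.347 CPM in the other lines. It made up most of REH's summed level, and the overlap rested on this gene: without it both controls lay below both t(4;11) lines. CD3D, CD3E and CD3G of T cells had no count. The summed level of 12 T and NK cell markers was nevertheless higher with t(4;11), at 60.4 and 48.3 CPM versus 24.5 and 20.8 CPM, carried by LCK and NKG7. That of the B-precursor markers was lower, at 2610.4 and 1267 CPM versus 4579 and 3980.5 CPM. CD24 carried most of that gap, at 268 and 6.01 CPM versus 1895 and 1132 CPM. Without CD24 both t(4;11) lines still lay below both controls, with RS4;11 much nearer to them. Of those 12 genes 6 were lower and none higher without overlap, against 28.3% and 19.0% of all genes tested. The part of these differences in the levels of the oxidase genes was not tested. In bulk RNA, fewer cells expressing a gene and less RNA per cell cannot be told apart.

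CYBB, the catalytic chain, separated the lines from each other far more than any other member did. It had 6 counts in RS4;11 and 4 in SEM, against 4947 in NALM6 and 8406 in REH. In RS4;11 that was 0.116 CPM and in SEM 0.119 CPM, with 95% exact Poisson intervals of 0.0424 to 0.252 and 0.0324 to 0.305 CPM. NALM6 stood at 110.3 CPM (107 to 113) and REH at 99.8 CPM (97.7 to 102). Both t(4;11) lines were therefore near the floor and both controls near 100 CPM. The nearness of the t(4;11) values to each other rests on 6 and 4 counts, and their wide intervals leave room for a difference between these lines. The intervals cover counting error only, and no spread between cultures or libraries. The reads carry no molecular identifiers and may repeat a molecule, so the intervals may be too narrow even for counting error. The group means were 0.117 ± 0.00234 CPM and 105 ± 7.41 CPM (SD, n = 2 each), an 895-fold ratio or a log2 ratio of -9.81. Of the 13844 genes that passed edgeR's filter on low counts, 34 had a lower log2 ratio than CYBB. CYBB was chosen with these values known and passed that filter through the controls, so this place is a description only.

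CYBA, the partner chain of CYBB in cytochrome b558, was expressed in every line whether or not CYBB was. RS4;11 had 82.2, SEM 99.3, NALM6 89.5 and REH 60.4 CPM. The highest line was a t(4;11) line, the lowest was a control, and the groups overlapped. The log2 ratio was 0.28, and it lay between 0.02 and 0.59 when each line was left out in turn. With TMM-scaled library sizes the groups just separated, at 86.2 and 102 CPM with t(4;11) against 86.0 and 58.5 CPM.

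The cytosolic organizer NCF1 was the least expressed of the other members on the length-scaled measure given further on. RS4;11 had 15.5, SEM 11.9, NALM6 22.1 and REH 12.3 CPM. NALM6 was the highest line and the other lines lay close together, so the groups overlapped. Its log2 ratio of -0.33 turned to 0.16 without NALM6. NCF1 has the near-identical pseudogene copies NCF1B and NCF1C on chromosome 7, and the counting may split their reads. NCF1 took between 58.7% (RS4;11) and 76.1% (NALM6) of the counts of the 3 genes. Summed over the 3 copies, the level was 26.4 and 19.5 CPM with t(4;11) against 29.1 and 18.1 CPM, which again overlapped. The share taken by NCF1 itself was lower in both t(4;11) lines, at 58.7% and 61.1%, than in NALM6 and REH, at 76.1% and 67.7%.

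NCF4, the modulator p40phox that binds a phosphoinositide of phagosomes, had nearly equal levels in the t(4;11) lines. RS4;11 had 121, SEM 124, NALM6 201 and REH 141 CPM. Both controls were above both t(4;11) lines, with group means of 123 ± 2.26 CPM and 171 ± 42.3 CPM (SD, n = 2 each). The log2 ratio was -0.47, and -0.20 without NALM6. GENCODE 29 places the antisense gene NCF4-AS1 across part of NCF4, and this library kit does not mark strand, so reads of both cannot be told apart.

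RAC2, the Rac GTPase of blood cells, showed no ordering by t(4;11). RS4;11 had 170.4, SEM 136, NALM6 122 and REH 196 CPM. Both controls lay outside the range of the t(4;11) lines, 1 above it and 1 below it. The log2 ratio was -0.05 by column sum and 0.05 with TMM scaling, so its sign depended on the scaling.

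**Figure D1:**
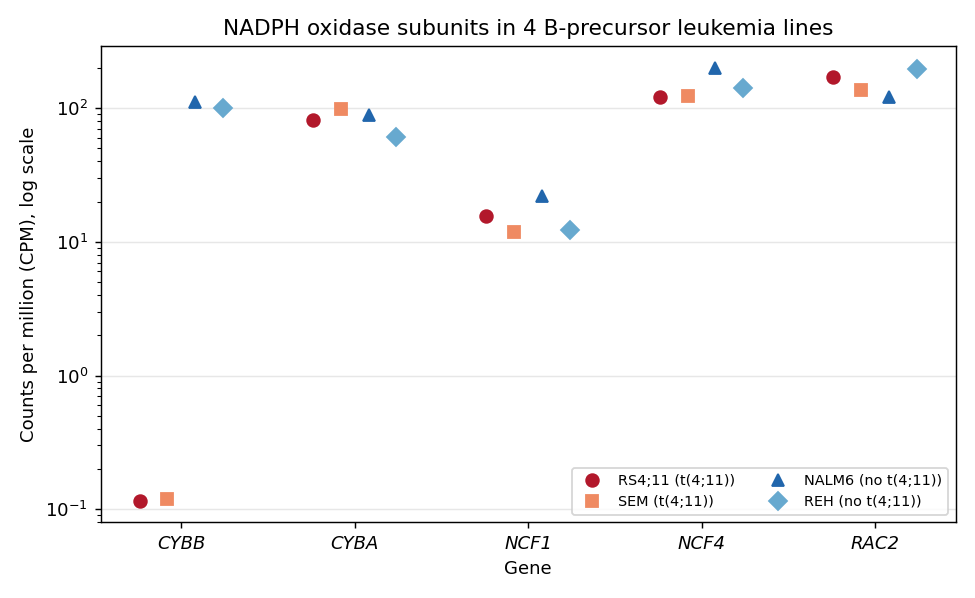
Level of each NADPH oxidase subunit gene (x axis) in CPM on a log axis, with 1 symbol per cell line, red and orange for t(4;11) and blue for the controls. CYBB lies near 0.1 CPM in RS4;11 and SEM and near 100 CPM in NALM6 and REH, and CYBA, NCF1, NCF4 and RAC2 vary less than 2-fold over the 4 lines.

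Apart from CYBB, the highest line stood above the lowest by 1.65-fold for CYBA, 1.86-fold for NCF1, 1.65-fold for NCF4 and 1.60-fold for RAC2. For CYBB that ratio was 954. Within the t(4;11) group CYBB differed by 1.03-fold between the lines and within the control group by 1.11-fold. The first of these ratios rests on 6 and 4 counts and does not show how alike RS4;11 and SEM are. NCF1 and RAC2 differed by 1.80-fold and 1.60-fold between NALM6 and REH, in opposite orders. Each line had 1 library, so neighbouring lines in these orders have no spread of their own beyond counting error.

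All 5 members passed the filter on low counts. The groups did not overlap for 2 of them, CYBB and NCF4, both lower with t(4;11), while 28.3% of all genes tested were lower with t(4;11) without overlap. The median absolute log2 ratio was 0.33 over the members and 0.47 over all genes tested. TMM scaling shifted the median log2 ratio of all genes by 0.103, from -0.12 to -0.02. The share of non-overlapping genes that were lower then moved from 59.9% to 49.0%, with 23.4% of all genes tested lower and 24.3% higher, and CYBA joined CYBB and NCF4 as a member without overlap, on the higher side. Without regard to direction, 47.3% of genes tested did not overlap. In the authors' deposited DESeq table CYBB was the 1 member called (lower), where 0.630% of genes were called lower, 0.934% higher and 1.56% in all. The authors' deposited Cuffdiff table called none of the members, and of its genes 1.11% lower, 1.23% higher and 2.34% in all. The authors' deposited Cuffdiff table still gave CYBB a log2 fold change of -9.71.

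The subunits can be compared with each other on the deposited Cuffdiff FPKM, which scales for gene length and is summarised by the authors over the libraries of a group. In the controls CYBA stood at 128 FPKM, NCF4 at 123 FPKM and RAC2 at 115 FPKM in the authors' deposited table. CYBB followed at 23.8 FPKM and NCF1 at 13.3 FPKM. The catalytic chain thus had 18.7% of the length-scaled level of its partner p22phox in the controls. In the t(4;11) group the order of CYBA (166 FPKM), RAC2 (119 FPKM), NCF4 (95.9 FPKM) and NCF1 (11.4 FPKM) was topped by the same 3 genes. CYBB stood there at 0.0284 FPKM, or 0.0172% of CYBA. These group values have no error of their own in the authors' deposited table.

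**Figure D2:**
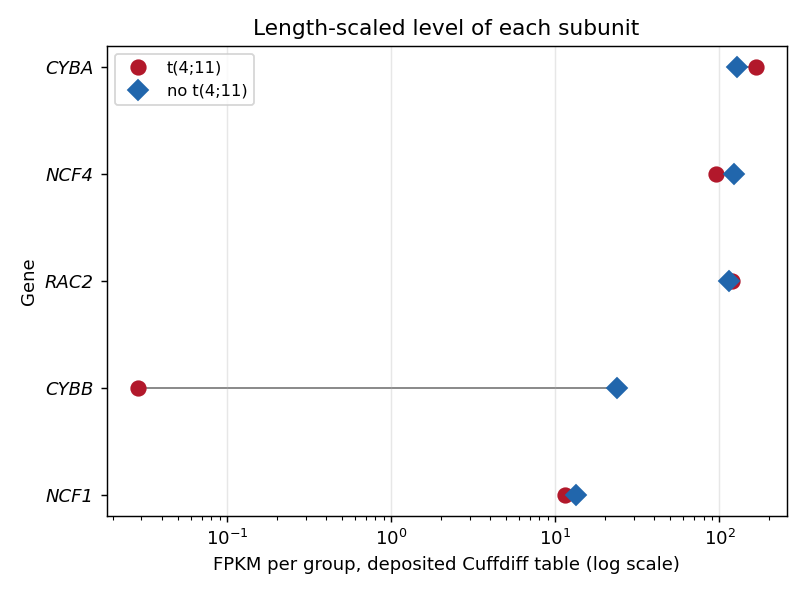
Length-scaled level of each subunit gene (y axis) as FPKM per group on a log axis, from the authors' deposited Cuffdiff table, with a red circle for t(4;11) and a blue diamond for no t(4;11). CYBB spans 0.0284 to 23.8 FPKM, while the symbols of CYBA, NCF4, RAC2 and NCF1 lie close together.

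GENCODE 29 also places the protein-coding gene AF241726.2 over CYBB on the same strand, and how the authors' counting treated it is not given in the sources used here. In the hg19 loci of the deposited table the members lie on 4 chromosomes. CYBB spans chrX:37639270-37672714, CYBA chr16:88709697-88717492 and NCF1 chr7:74188309-74203659. NCF4 (chr22:37257030-37274059) and RAC2 (chr22:37621310-37640305) are near each other on chromosome 22. The 250 bases before the annotated start were available for 3 of the 5 members (CYBB, CYBA and NCF1) in RefSeq's GRCh38.p14. They are shown because the membrane partners CYBB and CYBA, whose products form 1 cytochrome, had unlike levels across the lines. Capitals mark matches, on both strands, to GAGGAA (a core of PU.1 sites), CCAAT and GGGCGG (the GC box), and none of these 3 windows had a match to TATAAA, which 10.7% of promoters hold.
CYBB, chrX:37779809-37780058, plus strand: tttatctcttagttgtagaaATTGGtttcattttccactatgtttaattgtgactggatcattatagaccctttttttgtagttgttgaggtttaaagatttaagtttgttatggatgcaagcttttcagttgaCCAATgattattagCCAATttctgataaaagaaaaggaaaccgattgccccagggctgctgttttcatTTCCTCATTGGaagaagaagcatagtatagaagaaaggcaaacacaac
CYBA, chr16:88651054-88651303, minus strand: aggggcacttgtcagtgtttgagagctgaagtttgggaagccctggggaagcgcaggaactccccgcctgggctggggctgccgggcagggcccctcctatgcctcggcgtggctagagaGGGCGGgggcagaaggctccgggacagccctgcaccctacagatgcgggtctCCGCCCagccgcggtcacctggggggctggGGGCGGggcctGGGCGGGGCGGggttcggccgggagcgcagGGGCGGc
NCF1, chr7:74773761-74774010, plus strand: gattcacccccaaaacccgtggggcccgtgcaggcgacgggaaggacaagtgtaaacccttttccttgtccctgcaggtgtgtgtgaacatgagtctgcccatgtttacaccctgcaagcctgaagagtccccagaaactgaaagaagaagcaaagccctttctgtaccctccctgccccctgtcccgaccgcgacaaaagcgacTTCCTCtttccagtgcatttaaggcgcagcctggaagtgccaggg

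The upstream sequences of the cytochrome partners differed in base composition. CYBB had 34.0% G and C with 1 CpG, and CYBA 73.6% with 18 CpG, against a median of 58.0% and 11.0 CpG over the 35116 promoters of the table. NCF1 lay between them at 56.4% with 9 CpG. CYBB held 4 matches to CCAAT, which 32.0% of the promoters hold at least once, and CYBA held 6 matches to GGGCGG, held by 42.6%. GAGGAA had 1 match in CYBB at position -48 and 1 in NCF1 at position -45 from the start, both on the opposite strand, and 23.6% of the promoters hold it. No match to GAGGAA or CCAAT was in the CYBA window. A match is a run of letters, and its use in these lines was not measured.

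Other assembly factors and GTPases of the oxidase were also measured. EdgeR called none of those tested, and 0 of all 13844 genes tested. C17orf62, now named CYBC1, encodes the chaperone that stabilises the CYBB protein. It stood at 168, 75.7, 201 and 132 CPM in RS4;11, SEM, NALM6 and REH, and the groups overlapped (edgeR adjusted p = 0.817). RAC1, the ubiquitous Rac GTPase, had 122 and 152 CPM with t(4;11) against 193 and 145 CPM (edgeR adjusted p = 0.763). RAC3 had 4.63 and 4.73 CPM versus 6.38 and 24.8 CPM, a gap set mainly by REH. RAP1A, a small GTPase that copurifies with the cytochrome, had 68.1 and 66.6 CPM versus 56.7 and 56.8 CPM (edgeR adjusted p = 0.516). NOXO1, an NCF1 homologue of non-phagocytic oxidases, lay between 0.202 and 1.03 CPM. Its partner NOXA1 lay at or below 0.653 CPM, and the DUOX maturation factors DUOXA1 and DUOXA2 at or below 0.0831 CPM. NOXA1, DUOXA1 and DUOXA2 did not pass the filter on low counts and were not tested.

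No other catalytic oxidase reached a level near that of CYBB in the controls. DUOX1, a peroxide-making oxidase of epithelia, was the highest of the 6 and stood at 0.655 and 0.268 CPM in the t(4;11) lines versus 0.892 and 1.79 CPM. The groups did not overlap and the change did not pass the test (edgeR adjusted p = 0.575). DUOX2 had 38 counts in REH and at most 3 in the other lines. NOX1 had between 2 and 9 counts and NOX4 at most 2. NOX3, an oxidase of the inner ear, had 14 counts in RS4;11 and at most 2 elsewhere, and NOX5 had 1 count in REH alone. The summed level of these 6 genes was 1.02 (RS4;11), 0.535 (SEM), 1.11 (NALM6) and 2.39 (REH) CPM.

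Of the pooled lists (pathway, marker and neighbour genes), 129 of 190 genes found were tested outside the members. EdgeR's quasi-likelihood test called 0 of them, and 0% of all genes tested. At an unadjusted p under 0.05 it gave 11 lower and 12 higher, where 5.87% of all genes tested were lower and 6.18% higher. Among the 11 lower, 4 were chromosome 22 neighbours, 1 an X chromosome neighbour and 1 a B-precursor marker. Among the 12 higher, 2 were T and NK cell markers. On the same genes edgeR's exact test called 3 lower and 6 higher (2.95% of all genes tested in either direction), and DESeq2 11 lower and 12 higher (9.74%). Without the filter on low counts the quasi-likelihood test called 1 of them, MEIS1 (0.0272% of genes). Of the 190 genes found, the authors' deposited DESeq table called 3 lower and 5 higher, where 0.630% of its genes were called lower and 0.934% higher. With 2 lines per group an exact permutation test of 1 gene cannot go below p = 0.333, two-sided. Such p-values rest on differences between unlike leukemia lines.

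**Figure D3:**
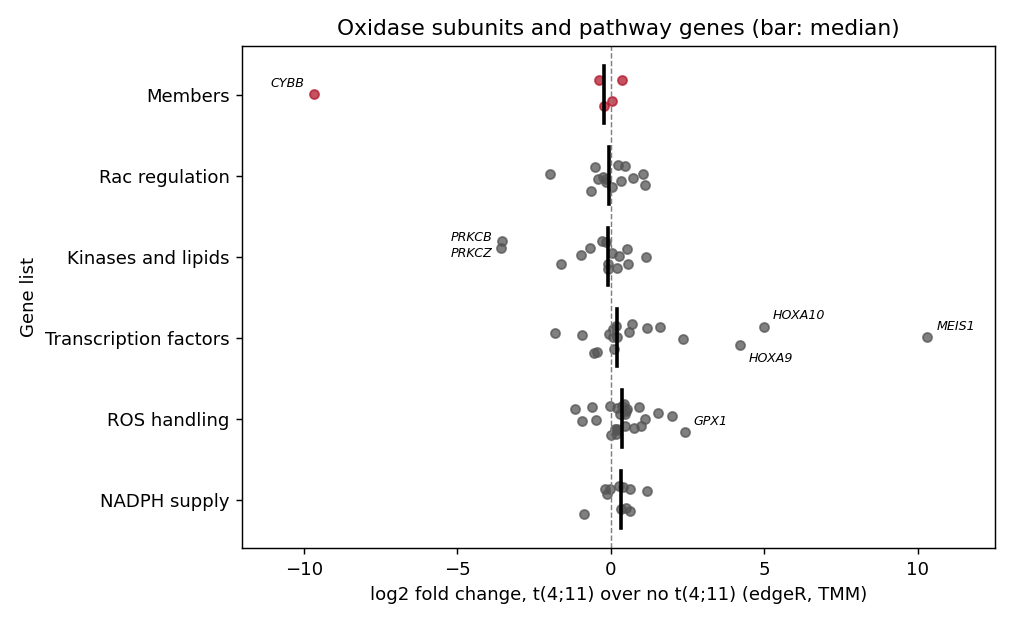
log2 fold change of t(4;11) over no t(4;11) by edgeR with TMM scaling (x axis) for each tested gene of the oxidase subunits and 5 pathway lists (y axis), with a black bar at each list's median. CYBB lies at -9.68 and the other members between -0.37 and 0.38, while PLA2G4A and CEBPA, with 0 counts in both controls, are counted in the medians but not drawn.

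Rac cycles between a held and an active state, set by inhibitors, exchange factors and GTPase-activating proteins. VAV2, an exchange factor singled out after its values were seen, had 0 counts in NALM6 and between 54.6 and 86.9 CPM in the other lines. ARHGDIB, the inhibitor that keeps Rac2 in the cytosol of blood cells, averaged 897 ± 145 CPM with t(4;11) and 817 ± 126 CPM without (SD, n = 2 each). The exchange factor DOCK2 stood at 172 and 350.2 CPM versus 480.3 and 309.9 CPM. ELMO1, the partner of DOCK2, had 33.3 and 18.2 CPM with t(4;11) against 114 and 106 CPM. Its edgeR log2 fold change was -1.99 (SE 0.38, adjusted p = 0.313), and the authors' deposited DESeq table called it lower. ARHGDIA (294 and 331 against 259.8 and 143 CPM) was higher and RACGAP1 (152 and 143 against 165 and 214 CPM) lower in both t(4;11) lines, but with TMM scaling RACGAP1 overlapped. Over the 14 tested genes of the list the log2 fold change had its median at -0.05 (-0.02 over all genes tested), with 2 lower and 1 higher without overlap (1 and 1 with TMM scaling). Of all genes tested, 28.3% were lower and 19.0% higher by column sum, and 23.4% and 24.3% with TMM scaling.

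Kinases and lipid enzymes activate the oxidase by phosphorylating its subunits and by making lipids they bind. PRKCB, a kinase that phosphorylates p47phox, had 7.15 and 18.6 CPM in the t(4;11) lines versus 68.5 and 256 CPM (log2 fold change -3.56, SE 0.94, edgeR adjusted p = 0.367). Leaving out REH gave PRKCB -2.32 on the log2 scale, and leaving out SEM -4.38. The authors' deposited Cuffdiff table called PRKCB lower and their DESeq table did not. PRKCA averaged 12.1 ± 1.17 CPM with t(4;11) and 40.3 ± 14.5 CPM without, with no overlap (edgeR adjusted p = 0.344). PRKCE went the other way, with 174 and 88.2 CPM versus 44.1 and 83.5 CPM (edgeR adjusted p = 0.495). PLA2G4A, the cytosolic phospholipase A2 that releases arachidonic acid, had 12.2 and 11.2 CPM in the t(4;11) lines and 0 counts in both controls. That was at least 228-fold higher, against a floor of 3 counts per control library, and the authors' deposited DESeq table called it higher. PIK3CD, a lymphocyte phosphoinositide kinase, had 212 and 91.5 CPM versus 297 and 347 CPM. The most abundant genes of the list were PAK2 (288 and 311 against 355 and 265 CPM) and SYK (189 ± 86.8 against 321 ± 96.3 CPM, SD, n = 2 each). PAK2 overlapped between the groups, and SYK was lower in both t(4;11) lines by column sum only. With TMM scaling RS4;11 stood at 262 CPM of SYK and REH at 245 CPM. Of the 16 tested genes, 6 were lower and 3 higher without overlap, against 28.3% and 19.0% of all genes tested, and the median log2 fold change was -0.08. With TMM scaling these counts were 5 and 4, against 23.4% and 24.3%.

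Transcription factors known to act on oxidase genes included some with like levels in all lines and others with large gaps between the groups. SPI1 encodes PU.1, which drives CYBB in myeloid cells, and stood at 49.5, 53.3, 58.9 and 56.2 CPM in RS4;11, SEM, NALM6 and REH; it was singled out after its values were seen. ELF1, an ETS factor that binds the CYBB promoter, had 556 and 421 CPM with t(4;11) against 291 and 361 CPM. RUNX1 had 586 and 794 CPM versus 194 and 285 CPM (log2 fold change 1.62, SE 0.30, edgeR adjusted p = 0.313); both of the authors' deposited tables (DESeq and Cuffdiff) list it as higher. HOXA9 and HOXA10, homeobox proteins that bind the CYBB promoter in myeloid cells, were ordered opposite to CYBB between the groups. HOXA10 stood at 71.0 and 54.8 CPM with t(4;11), with 0 counts in NALM6 and 354 in REH, and HOXA9 at 12.0 and 13.6 CPM versus 0 and 1.47 CPM. MEIS1, their cofactor, stood at 147 and 131 CPM versus 0.111 and 0.119 CPM, near the mirror image of CYBB (edgeR adjusted p = 0.0507). CEBPA, a myeloid factor, stood at 9.41 CPM (RS4;11) and 159 CPM (SEM), with 0 counts in both controls, at least 1639-fold higher against the floor of 3 counts per library. That bound rested on SEM and was 184-fold without it and 3095-fold without RS4;11. The authors' deposited DESeq table called MEIS1, HOXA10 and HOXA9 higher, and their Cuffdiff table called CEBPA. Of 19 such genes tested, 6 were higher and 3 lower without overlap, where 19.0% of all genes tested were higher and 28.3% lower. With TMM scaling these counts were 6 and 1, against 24.3% and 23.4%. By column sum the 3 lower genes were SPI1, IRF1 and CUX1. IRF1 had 79.0 and 73.9 CPM with t(4;11) versus 104 and 138 CPM. CUX1 had 222 and 135 CPM versus 226 and 511 CPM. The part of these factors in the level of CYBB was not tested.

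**Figure D4:**
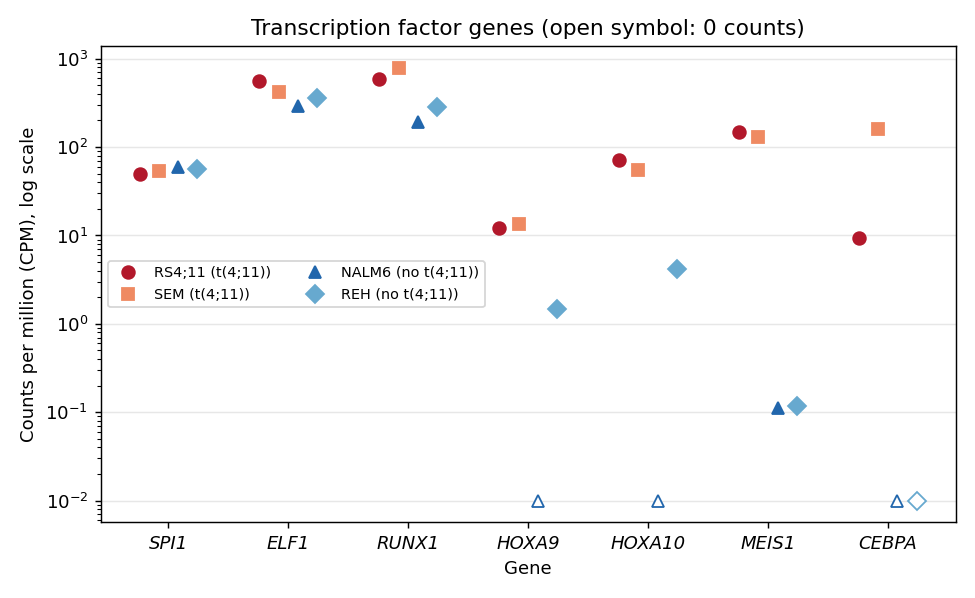
Level of 7 transcription factor genes (x axis) in CPM on a log axis, with 1 symbol per line and open symbols at the bottom for 0 counts. SPI1 lies between 49.5 and 58.9 CPM in the 4 lines, while HOXA9, HOXA10, MEIS1 and CEBPA are higher in RS4;11 and SEM than in NALM6 and REH.

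The oxidase product is removed by enzymes that handle superoxide and peroxide. Of 25 such genes tested, 10 were higher and 2 lower without overlap, where 19.0% of all genes tested were higher and 28.3% lower. With TMM scaling these counts were 11 and 1, against 24.3% and 23.4%. GPX1, the cytosolic glutathione peroxidase, had 127 and 378 CPM in the t(4;11) lines versus 62.1 and 39.0 CPM (log2 fold change 2.41, SE 0.65, edgeR adjusted p = 0.374), and the authors' deposited Cuffdiff table called it higher. Leaving out SEM lowered that log2 fold change of GPX1 to 1.45. HVCN1, the proton channel that balances the charge moved by the oxidase, had 45.8 and 63.3 CPM versus 17.9 and 22.1 CPM (log2 fold change 1.55, SE 0.28, edgeR adjusted p = 0.310). NQO1 had 5.38 and 26.1 CPM versus 4.77 and 3.67 CPM, a gap set mainly by SEM, and GCLC, of glutathione synthesis, 32.4 and 61.8 CPM versus 26.6 and 20.4 CPM. SOD2, the mitochondrial superoxide dismutase, lay in the other direction at 51.3 and 37.6 CPM versus 147 and 67.3 CPM. PRDX1, a peroxiredoxin, had 1499.7 and 967 CPM versus 727 and 618 CPM, and TXNRD1, thioredoxin reductase, 241 and 339 CPM versus 239 and 189 CPM. The list's median log2 fold change was 0.36, and edgeR called 0 of its genes.

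Enzymes that supply NADPH, the oxidase's substrate, numbered 11 among the genes tested, with log2 fold changes centred on 0.32. IDH1, the cytosolic isocitrate dehydrogenase, stood at 83.5 and 84.5 CPM with t(4;11) against 39.1 and 41.2 CPM (log2 fold change 1.17, SE 0.18, edgeR adjusted p = 0.310). PGD, of the pentose phosphate pathway, had 268 and 257 CPM versus 189 and 173 CPM. NADK, the kinase that makes NADP, was the opposite, at 74.7 and 73.7 CPM versus 164 and 127 CPM (edgeR adjusted p = 0.339). The list's most abundant genes, TKT (375 and 492 against 775 and 235 CPM) and IDH2 (332 and 364 against 349.8 and 249.7 CPM), overlapped between the groups by column sum, and with TMM scaling IDH2 was higher in both t(4;11) lines. ME1, malic enzyme, had 4.19 CPM in SEM and at most 0.116 CPM elsewhere. Without overlap 2 genes were higher and 1 lower by column sum, and 5 higher and 1 lower with TMM scaling. The shares over all genes tested were 19.0% higher and 28.3% lower, and 24.3% and 23.4% with TMM scaling.

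Genes next to the members were described from lists of neighbours. On the X chromosome 3 of 12 neighbours of CYBB found were tested. DYNLT3 had 19.5 and 19.6 CPM in the t(4;11) lines versus 32.8 and 49.8 CPM (log2 fold change -0.98, SE 0.32, edgeR adjusted p = 0.401). RPGR had 18.8 and 19.0 CPM versus 16.9 and 26.5 CPM, and its groups overlapped. On chromosome 22, 9 of 11 tested neighbours of NCF4 and RAC2 were lower with t(4;11) without overlap (28.3% of all genes tested), and 8 of 11 with TMM scaling (23.4%), which also left 1 higher. EdgeR called 0 of the 11 and gave 4 an unadjusted p under 0.05. CSF2RB, a cytokine receptor chain beside NCF4, had 38.8 and 28.0 CPM versus 168 and 62.4 CPM. KCTD17 had 5.40 and 2.23 CPM versus 63.5 and 14.5 CPM, and GGA1 52.5 and 53.7 CPM versus 113 and 98.9 CPM. MFNG was at 29.7 (RS4;11), 0.0595 (SEM), 139.5 (NALM6) and 61.4 (REH) CPM. ELFN2 had 108 CPM in NALM6 and 3.32 CPM in REH but 1 count in each t(4;11) line, and TMPRSS6 reached 3.75 CPM in NALM6 and at most 0.546 CPM elsewhere.

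**Figure D5:**
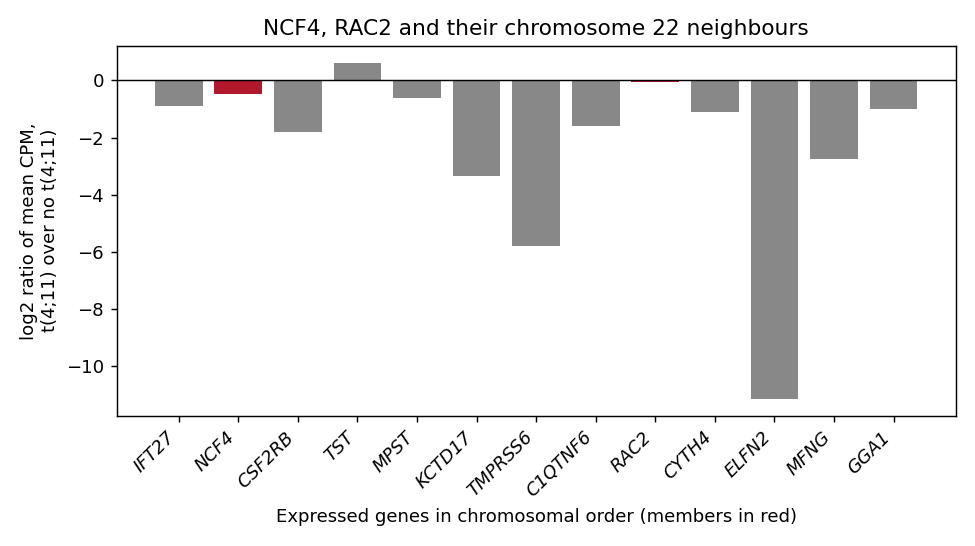
log2 ratio of mean CPM, t(4;11) over no t(4;11) (y axis), for NCF4 and RAC2 (red) and their tested neighbours (grey) in chromosomal order. RAC2 lies at -0.05 (0.05 with TMM scaling) and NCF4 at -0.47 among neighbours that are mostly lower with t(4;11), and TST alone lies above 0.

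The genes whose pattern over the 4 lines was most like that of a member were found on log2(CPM + 1), centred per gene, by the root mean square difference. TCF4, an E-protein transcription factor, was nearest to CYBB at 0.0988, with 3.82 and 3.90 CPM in the t(4;11) lines versus 446 and 370.5 CPM. PLEKHG4B (0.383) and DTX1 (0.398), a ubiquitin ligase of the NOTCH pathway, followed at a distance. TCF4 was the 1 gene within 0.1 of CYBB, whereas 189 genes were within 0.1 of CYBA, 155 of NCF4, 109 of RAC2 and 59 of NCF1. The nearest to CYBA were CHMP1A (0.0187), TP53BP2 (0.0198) and DIMT1 (0.0205). For NCF1 they were ZNF432 (0.0282), ASB14 (0.0351) and ADCY4 (0.0415), and for NCF4 UBE3D (0.0108), SELPLG (0.0231) and CHRNA10 (0.0339). For RAC2 they were FAM66D (0.0234), CELF4 (0.0280) and the ribosomal gene RPS15A (0.0347). These likenesses rest on 4 lines, and near genes at low CPM are drawn together by the added 1 CPM. The same 1 CPM shrinks the log2 ratio of CYBB from -9.81 to -6.57. TCF4 was well above the floor with t(4;11) and had a smaller ratio than CYBB, so its nearness depends on that added 1 CPM.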

How the data were processed

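RNA-seq of 4 cell lines was grouped by the labels into t(4;11) (RS4;11, SEM) and no t(4;11) (NALM6, REH). Build hg19 and the tools TopHat2 2.0.4, CASAVA 1.8.2, Cuffdiff, DESeq and HTSeq are listed in the submitters' processing notes without settings. Which gene annotation was used is not given in the sources used here. Raw HTSeq counts for each line stand in 1 of the deposited tables, along with, per the file headers, the authors' DESeq normalized counts (a signal divided by 1 factor per line), their fold change as a ratio of control to t(4;11), and p-values. Per the file headers, the authors' Cuffdiff table holds FPKM per group, a log2 fold change, a test score and q-values. Signs of deposited changes were turned so that positive is higher with t(4;11), and 28 symbols were spoiled to dates.

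CPM was the count over its column sum. Tests used edgeR 4.0.16 (R 4.3.3): TMM, filterByExpr, glmQLFit and glmQLFTest, two-sided, adjusted by Benjamini-Hochberg at 0.05 over 13844 genes. Each SE was derived from that test, as the absolute log2 fold change over the square root of its F statistic. Alternatives were DESeq2 1.42.0, edgeR's exact test, RLE factors, no filter and leaving out each line. The tests were run on simulated counts that had the same spread setting for all genes. That run does not show how the tests behave on these lines. The members, lists and alternatives were chosen with earlier results of these data known. In each pathway list the text names up to 5 genes with the largest log2 ratio among those that do not overlap and reach a mean of 1 CPM, and the 2 most abundant. Of the marker lists, by that rule, CSF1R (10.0 and 33.3 against 0.0892 and 5.27 CPM) and FCGR2A were named for myeloid cells and LCK and NKG7 for T and NK cells. B-precursor BLNK, CD24, VPREB3, CD79B and IGLL1 were lower in both t(4;11) lines. Entries with no count in any line numbered 4952. Figures used matplotlib 3.10.9. Results of some other genes are not reported here.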

Additional observations from a re-analysis of the deposited data

How the results depend on the processing

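The quasi-likelihood test called 0 genes, and 0 genes of the pooled lists (pathway, marker and neighbour genes), with TMM and with RLE factors. Without a filter on low counts it called 5 genes, 1 of them a list gene (MEIS1). DESeq2 called 1349 genes and 23 genes of the pooled lists, and edgeR's exact test 408 and 9. The deposited calls, added after the data were seen, were 288 and 8 in the authors' DESeq table and 332 and 9 in their Cuffdiff table. The log2 ratio of CYBB was -6.57 as a difference of mean log2(CPM + 1), where the added 1 CPM is far above its level with t(4;11), and lay between -9.88 and -9.73 with each line left out. CYBA, NCF1 and NCF4 kept their sign under both scalings, and with each line left out they ranged from 0.02 to 0.59, from -0.69 to 0.16 and from -0.71 to -0.20. Summed with NCF1B and NCF1C, NCF1 gave -0.04. RAC2 changed sign to 0.05 with TMM, with RLE, in the deposited FPKM and in the deposited DESeq fold change, and with a line left out ranged from -0.35 to 0.33 (0.10 without SEM, 0.33 without REH). No paired analysis was possible, because each line stands for a separate leukemia and nothing pairs a t(4;11) line with a control.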

Other observations

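Genes with a gap like that of CYBB were listed. The limits were set with its own values known, so the numbers do not show how rare such a pattern is. Genes under 0.2 CPM in both t(4;11) lines and above 50 CPM in both controls, limits chosen after the values were seen, numbered 2 in the whole table, CYBB and C19orf63 (0 and 0.119 against 57.5 and 53.2 CPM). The reverse pattern was held by 8 genes. These were the homeobox gene MEIS1, the transcription factor TWIST1, the BMP antagonist GREM1, the calcium-binding family member S100A10, the receptor phosphatase PTPRR, the cytoskeletal linker DST, SPG20 and ZC3H12C. GREM1 had 73.3 and 149 CPM with t(4;11), and 0.0446 and 0.0712 CPM without, and S100A10 at 118 and 145 CPM with it and 0 and 0.0356 CPM.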
